A study of Mus musculus with 6 samples.

Results

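The SOX transcription factors described here are 10 genes, Sox2, Sox4, Sox5, Sox6, Sox7, Sox9, Sox10, Sox11, Sox17 and Sox21, of the 20 Sox family genes of the mouse. They were read from every probe of the array that carries one of these gene names, 17 of 55681 probes. The genes were chosen by their measured differences between LSC GFP+ and LSC GFP- cells on these arrays, so their levels and differences are given as a description, without a test. Expression was measured in cells sorted from prostates of 6-day-old male Tg 11.5kb-GFP mice on the FVB/N background, in which the 11.5kb promoter of s-SHIP, a stem cell form of a phosphatase, drives GFP. Both populations were lineage negative (without Ter119, CD31 and CD45) and positive for Sca-1 and CD49f, together called LSC, and both came from transgenic animals without treatment. They differ in GFP, which in this line also marks vascular smooth muscle cells, although those carry little Sca-1 or CD49f. Each population had 3 independent samples, with 1 array each, and the number of animals behind a sample is not given in the sources used here.

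SOX proteins bind DNA through an HMG box related to that of SRY and bend it, and they usually act together with a partner factor bound next to them. The family is divided into groups by this box. Group B includes Sox2, which keeps stem cells undifferentiated and is also found in basal epithelial cells, and Sox21, a repressor that counteracts it. Group C (Sox4, Sox11) acts in progenitor cells of many tissues, group D (Sox5, Sox6, Sox13) lacks an activation domain of its own and works beside group E (Sox8, Sox9, Sox10), and group F (Sox7, Sox17, Sox18) acts mainly in blood vessels and endoderm. Sox9 is needed for the growth of prostate buds, and Sox10 is known from neural crest and Schwann cells.

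Values are log2 signals from which the 75th percentile of the array was subtracted, so that 0 is the 75th percentile. Each probe is 60 bases long, and signals of different probes are not comparable as amounts of RNA. The positions are those of the array design on mm9, and exon and UTR annotation was not used here. The first 30 bases, 5′ to 3′, of the probes with the largest differences, those of Sox6 and Sox2, and of both Sox21 probes, which gave unlike differences, are shown for identity, without capitals.
Sox6: ttgtatttgccatgtacaattctgaattac
Sox2: tggcaatcaaatgtccattgtttataagct
Sox21, brighter probe: agagcgtgtggatttcgcagcatcattccc
Sox21, dimmer probe: tatatgagagatgaccgccgttccttttgt
A further set is shown because its letters may bear on what a probe reads, which was not tested. In the brightest probe of Sox5 the capitals mark GGA, and in the dimmest probe of Sox4 (bases 17 to 46) and the probe of Sox15 (bases 1 to 30) they mark a run of 13 bases that both hold.
Sox5, brightest probe: GGAGGAGGAGGAagaGGAGGAGGAGGAaga
Sox4, dimmest probe: ctaccctgACTACAAGTACCGgccgcgaaa
Sox15: ACTACAAGTACCGaccccggcgtaagagca
The run was the longest shared by any pair of Sox probes of different genes. The next longest, between a Sox5 probe and the Sox15 probe, had 9 bases.

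Of the 17 probes, 14 had a signal that the software calls well above background on all 6 arrays, and they covered 8 of the 10 genes. The other 3 probes, those of Sox7 and Sox17, failed the filter, which kept a probe that was well above background throughout LSC GFP+ cells, LSC GFP- cells or both. Among the 14 probes, 11 had the higher mean in LSC GFP+ cells and 3 the lower, against a higher mean in 49.4% of the 37005 probes that passed the filter. The populations did not overlap for 5 probes, 1 each of Sox2, Sox4, Sox6, Sox11 and Sox21, all higher in LSC GFP+ cells, against 12.3% of those probes in either direction and 6.61% in this one. A difference of at least 1.5-fold was measured for 4 probes, of Sox2, Sox6, Sox10 and Sox21, against 10.7% of all probes. The median difference of the 14 probes was 0.21 and that of all probes -0.0044. Nothing is read from these counts, since the genes were chosen with the comparison in view.

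**Figure D1:**
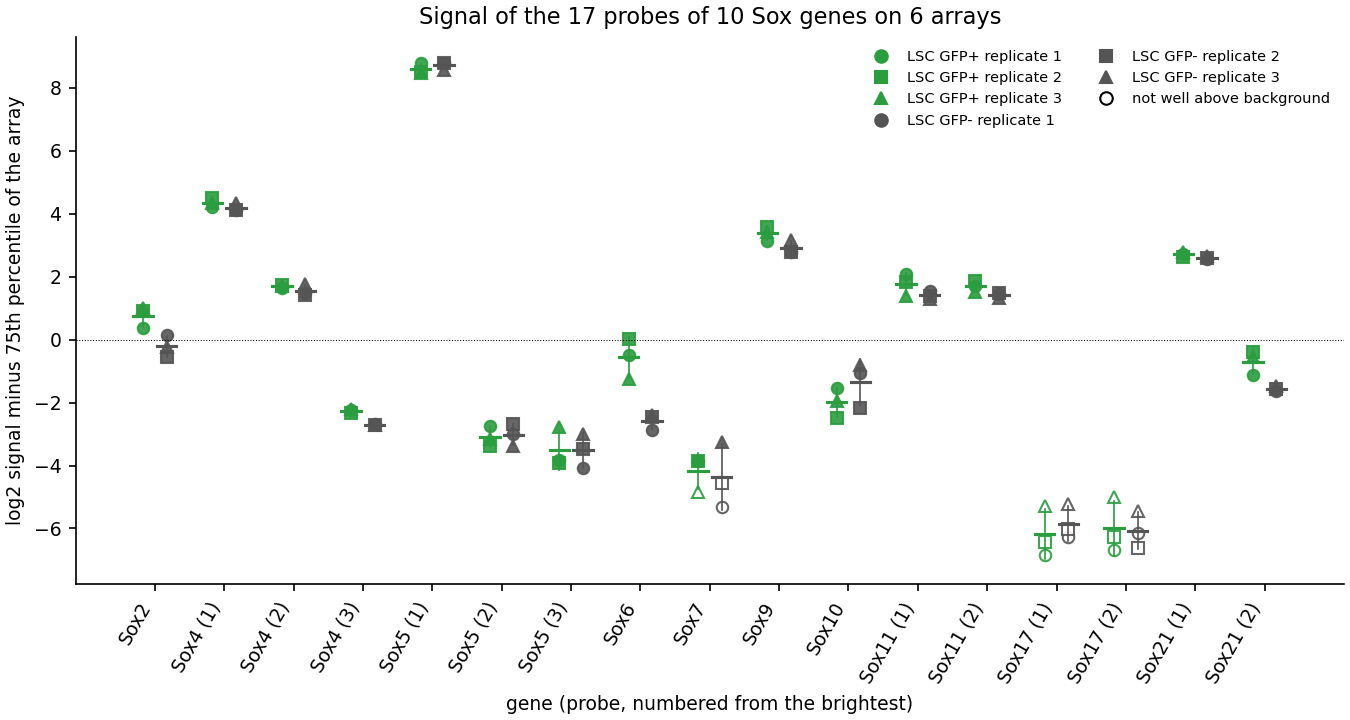
Log2 signal minus the 75th percentile of the array (vertical axis) for each of the 17 probes (horizontal axis, several probes of a gene numbered from the brightest), with 1 point per array, the mean of the 3 arrays as a horizontal line and the SD as a vertical one. The green points of Sox6 lie between -1.25 and 0.029, all above the grey ones, while the points of Sox10, Sox9 and every Sox5 probe overlap.

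In group B, Sox2 was measured by 1 probe at chr3:34550773-34550832 on the plus strand. On LSC GFP+ replicates 1, 2 and 3 it stood at 0.36, 0.91 and 0.998, and on LSC GFP- replicates 1, 2 and 3 at 0.14, -0.54 and -0.23. The populations did not overlap, although replicate 1 of each came within 0.22 of the other. The means were 0.76 ± 0.34 (SD, n = 3) and -0.21 ± 0.34 (SD, n = 3), a log2 difference of 0.97 (SE 0.28) or 1.95-fold. Within replicate numbers the difference was 0.22, 1.45 and 1.23, so it was far smaller for replicate 1 than for the other two. Sox2ot, the noncoding gene within which Sox2 lies, was measured by a probe of its own and stood at -3.62 ± 0.30 and -3.73 ± 0.40 (SD, n = 3 each), with overlap of the populations (limma adjusted p = 0.996). In sorted bulk samples such as these, fewer cells of a type and less RNA per cell cannot be told apart.

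Sox21 had 2 probes on the minus strand of chromosome 14, and they differed. The brighter one, at chr14:118633788-118633847, stood at 2.72, 2.63 and 2.79 in LSC GFP+ cells and at 2.57, 2.58 and 2.65 in LSC GFP- cells, which overlap, with a difference of 0.11 (SE 0.051). The dimmer one, at chr14:118633351-118633410, stood at -1.14, -0.41 and -0.54 in LSC GFP+ cells and at -1.62, -1.58 and -1.47 in LSC GFP- cells. The populations did not overlap on it, and its means of -0.70 ± 0.39 and -1.56 ± 0.077 (SD, n = 3 each) gave a difference of 0.87 (SE 0.23), 1.82-fold. Both probes carry the same RefSeq transcript in the array design, and the size of the difference in Sox21 varied with the probe.

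In group C, Sox4, which is raised in many prostate tumors, had 3 probes on the minus strand of chromosome 13. The brightest, at chr13:29040826-29040885, stood at 4.201, 4.50 and 4.33 in LSC GFP+ cells and at 4.12, 4.12 and 4.34 in LSC GFP- cells, a difference of 0.15 (SE 0.11) with overlap. The next, at chr13:29042856-29042915, stood at 1.64, 1.73 and 1.71 against 1.47, 1.43 and 1.77 and differed by 0.14 (SE 0.11), again with overlap. On both, the difference had the opposite sign within replicate 3, at -0.011 and -0.060, from that within replicates 1 and 2. The difference of the brightest was 0.073 without LSC GFP+ replicate 2, and that of the next was 0.072 without LSC GFP- replicate 2 and 0.24 without LSC GFP- replicate 3. The dimmest, at chr13:29044482-29044541, stood at -2.23, -2.34 and -2.20 in LSC GFP+ cells and at -2.69, -2.70 and -2.72 in LSC GFP- cells. Its populations did not overlap and its difference was 0.44 (SE 0.045), 1.36-fold, which fell to 0.23 with normexp background correction. This is the probe that shares 13 bases with that of Sox15.

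Sox11, a factor of neural and other progenitors, had 2 probes on the minus strand of chromosome 12. On the first, at chr12:28020087-28020146, LSC GFP+ replicates stood at 2.08, 1.84 and 1.37 and LSC GFP- replicates at 1.56, 1.39 and 1.29, so that LSC GFP+ replicate 3 lay among the LSC GFP- arrays. On the second, at chr12:28019541-28019600, the values were 1.72, 1.87 and 1.53 against 1.47, 1.48 and 1.34, and the populations were apart by 0.043. The differences were 0.35 (SE 0.22) and 0.28 (SE 0.11), higher in LSC GFP+ cells within each of the 3 replicate numbers on both probes. That of the first probe was 0.20 without LSC GFP+ replicate 1 and 0.55 without LSC GFP+ replicate 3.

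In group D, Sox6 had the largest difference of the 14 probes, on 1 probe at chr7:122615418-122615477 on the minus strand. It stood at -0.47, 0.029 and -1.25 on LSC GFP+ replicates 1, 2 and 3 and at -2.86, -2.45 and -2.40 on LSC GFP- replicates 1, 2 and 3. All LSC GFP+ arrays lay above all LSC GFP- arrays, and they spread more widely. The means were -0.56 ± 0.64 and -2.57 ± 0.25 (SD, n = 3 each), a difference of 2.01 (SE 0.40) or 4.02-fold. Within replicate numbers it was 2.39, 2.47 and 1.16. Across the other scalings, the background correction and each array left out it ranged from 1.31, with normexp, to 2.35.

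Sox5, the close relative of Sox6 with which it acts in cartilage, did not differ beyond its spread on any of 3 probes of chromosome 6. Its brightest probe stood at 8.78, 8.52 and 8.47 in LSC GFP+ cells and at 8.79, 8.78 and 8.58 in LSC GFP- cells, a difference of -0.13 (SE 0.12). The 2 others lay near -3, the one at chr6:143787982-143788041 with a difference of -0.072 (SE 0.27) and the one at chr6:143781520-143781579 with 0.0077 (SE 0.48). The former stood at -2.76, -3.37 and -3.14 in LSC GFP+ cells and at -2.99, -2.69 and -3.38 in LSC GFP- cells. The latter ranged from -3.92 to -2.78 in LSC GFP+ cells and from -4.08 to -2.99 in LSC GFP- cells, and replicate 3 was the highest of its 3 arrays in both.

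The brightest Sox5 probe is the GGA repeat printed above. It consists of purines alone, as do 23 probes of the array in all, and of the 58 triplets along its length only 7 are different, against a median of 36 over all probes. Its position in the array design, chr6:143776945-143776971, spans 27 bases. Only 94 probes of the array, 0.169%, were brighter, and the 29 probes with as few different triplets had a median log2 signal of 5.68 against -2.51 for all probes. Its signal over the 6 arrays was most like that of a probe without a gene name (r = 0.997 over 6 arrays), which is also rich in purines, at 85%, and 795 of 23782 genes had r over 0.95 with it. The share of its signal that comes from Sox5 RNA was not tested.

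**Figure D2:**
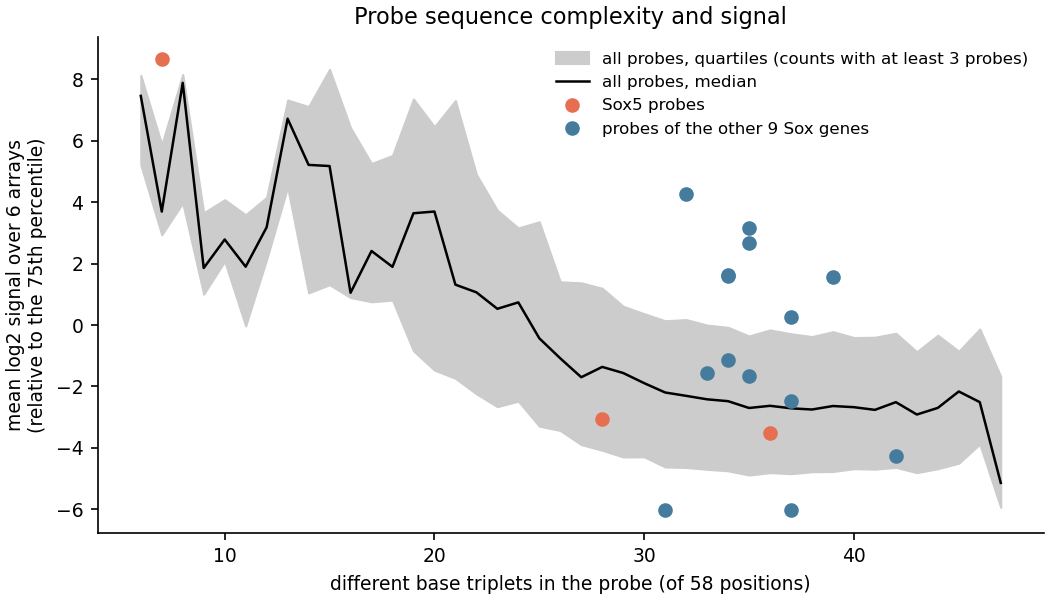
Mean log2 signal over 6 arrays, relative to the 75th percentile (vertical axis), against the number of different base triplets in the probe (horizontal axis), with the median and quartiles of all probes as line and band and the Sox probes as points. The brightest Sox5 probe, with 7 different triplets, lies at the far left, and the 2 other Sox5 probes lie near -3 with the bulk of the array.

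In group E, Sox9 was the member measured most often on each array, by 10 spots of 1 probe at chr11:112648809-112648868 on the plus strand. The spots of an array had an SD between 0.022 and 0.065 (9 spots on LSC GFP- replicate 1 and 10 on the others). Sox9 stood at 3.15, 3.59 and 3.42 on LSC GFP+ replicates 1, 2 and 3 and at 2.78, 2.78 and 3.18 on LSC GFP- replicates 1, 2 and 3. LSC GFP- replicate 3 thus lay above LSC GFP+ replicate 1, by 0.033, and the populations overlapped. The means were 3.38 ± 0.22 and 2.91 ± 0.23 (SD, n = 3 each), a difference of 0.47 (SE 0.18), and within replicate numbers it was 0.37, 0.81 and 0.24, higher in LSC GFP+ cells in each. The spread between arrays of 1 population was larger than that between spots.

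Sox10 was the member with the lower mean in LSC GFP+ cells beside Sox5. Its probe at chr15:78985518-78985577 on the minus strand stood at -1.55, -2.48 and -1.96 on LSC GFP+ replicates 1, 2 and 3 and at -1.06, -2.16 and -0.79 on LSC GFP- replicates 1, 2 and 3. The populations overlapped, and replicate 2 was the lowest of its population in both. The difference was -0.66 (SE 0.50), 1.58-fold lower, and it was negative within each replicate number, at -0.49, -0.31 and -1.17. Its size rested on single arrays, at -1.07 without LSC GFP- replicate 2, -0.42 without LSC GFP+ replicate 2 and -0.39 without LSC GFP- replicate 3.

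The group F genes Sox7 and Sox17, which act with Sox18 in endothelial cells, were at or near background. The Sox7 probe at chr14:64569419-64569478 stood at -3.86, -3.84 and -4.84 on LSC GFP+ arrays and at -5.32, -4.55 and -3.25 on LSC GFP- arrays, and was well above background on 2 of the former and 1 of the latter, replicate 3. The highest value of Sox7 was therefore on an LSC GFP- array, and neither population was measured throughout. Neither Sox17 probe, at chr1:4481038-4481097 and chr1:4481503-4481562, was well above background on any of the 6 arrays, where they read between -6.83 and -5.01, and no difference is given.

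**Figure D3:**
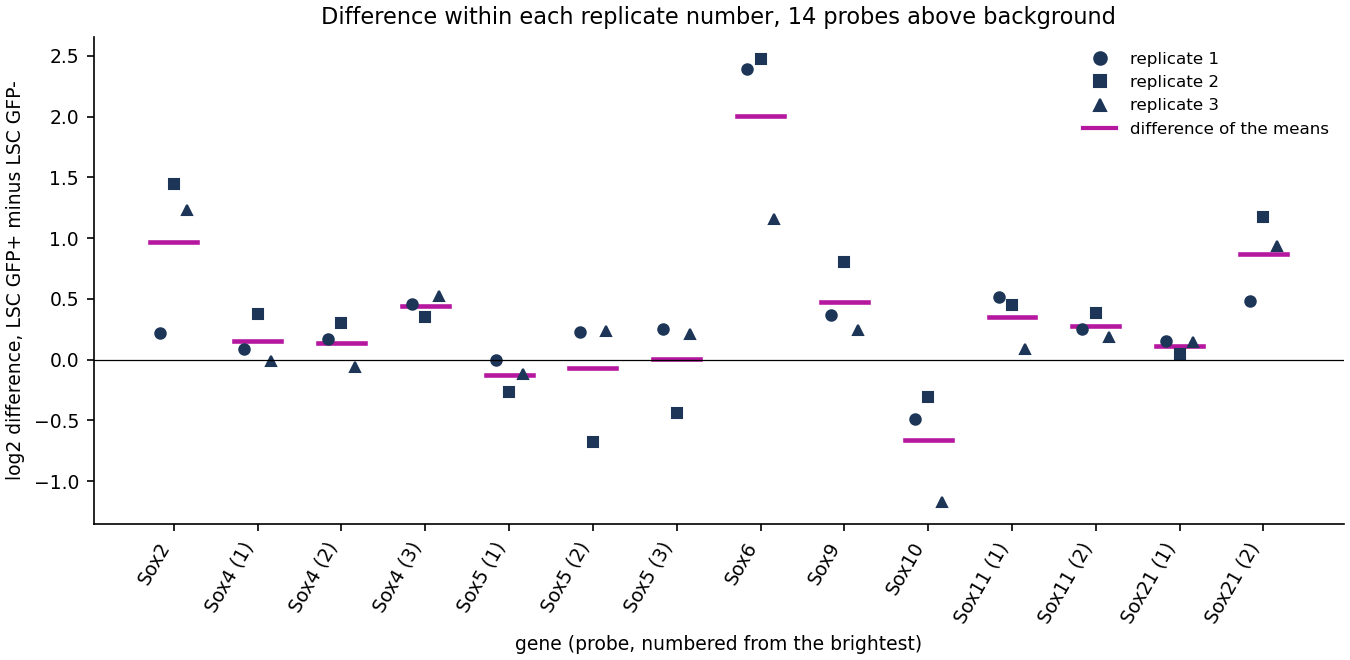
Log2 difference, LSC GFP+ minus LSC GFP-, within each replicate number (points) and between the means of the populations (lines), for the 14 Sox probes above background. Sox6 lies highest, between 1.16 and 2.47, all 3 points of Sox10 lie below 0, and those of 2 Sox4 probes and 2 dim Sox5 probes fall on both sides of it.

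The 10 Sox genes that were not chosen were tested in the fit of limma across all probes, each at its brightest probe. Sox1, Sox3, Sox12, Sox13, Sox15 and Sry passed the filter, and of these Sox13 alone, a group D gene, was past the unadjusted threshold of 0.05 in limma, against 7.66% of 25613 genes. It fell in LSC GFP+ cells, where it stood at -1.83, -1.26 and -1.75 against -1.03, -1.21 and -1.05 in LSC GFP- cells. Its means were -1.61 ± 0.31 and -1.10 ± 0.10 (SD, n = 3 each), a difference of -0.52 (SE 0.22) with an adjusted p of 0.62 in limma, and from 0.33 to 1.0 under the alternatives. The call was lost under quantile normalization, median scaling, the test of the methods and without a filter, and without every array in turn but LSC GFP+ replicate 2. Sox13 thus lay on the other side of 0 from its group D relative Sox6, a difference between genes that was not tested.

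The other 5 had limma differences of 0.19 (Sox1), 0.41 (Sox3), -0.30 (Sox12), 0.16 (Sox15) and -0.15 (Sry), with overlap and an adjusted p of 0.996 in each. A second, dimmer Sox1 probe had the opposite sign, with a difference of -0.46, also with overlap (limma adjusted p = 0.948). Sox15 stood at -2.15, -2.84 and -2.25 in LSC GFP+ cells and -2.77, -2.69 and -2.25 in LSC GFP- cells. Whether the Sox4 probe with the shared run also reads Sox15 RNA was not tested. Sox8, Sox18 and Sox30 were not well above background on any array, and Sox14 on 2 of 3 arrays of each population.

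Lists of genes known to act with SOX factors, or to mark cells in which they are known, were described in the same fit at the brightest probe of each gene. Over all 25613 genes, 7.66% passed an unadjusted p of 0.05, 3.38% higher and 4.29% lower in LSC GFP+ cells, and the median difference was -0.0069. After adjustment 0 genes passed in limma, and the test of the methods gave 2798 of 37005 probes at the unadjusted threshold. When the samples were paired in a replicate block, 5480 probes passed the unadjusted threshold (14.8%) in place of 2925 (7.9%). Which direction was the larger changed with the scaling and with the test. There were 1250 probes higher and 1675 lower as given here, 1646 higher and 1592 lower under quantile normalization, 1471 higher and 1299 lower with the array median, and 1579 higher and 1219 lower in the test of the methods.

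Of 16 partner factors, 13 passed the filter, with a median difference of 0.15, 1 gene higher and 1 lower. Klf4, a pluripotency factor that the study names on these samples, so that its direction is no independent evidence, rose from 2.37 ± 0.21 to 3.20 ± 0.13 (SD, n = 3 each) with a difference of 0.83 (limma adjusted p = 0.23). Pou3f3, a POU factor of neural and kidney development, fell by 1.24 from -2.0 ± 0.58 to -3.24 ± 0.28 (limma adjusted p = 0.25). The remaining POU factors, among them Pou5f1 at -1.88 ± 0.38 and -1.91 ± 0.13, did not pass. The number higher was 4 with normexp, 3 with the replicate block, with the test of the methods and without LSC GFP+ replicate 3, and 2 with the array median and without LSC GFP+ replicate 1. With normexp the difference of Pou3f3 was -0.69.

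Sox9, Sox5 and Sox6 are the factors that switch on cartilage genes. Of 13 such genes, 6 passed the filter, with a median of 0.28, and 2 were higher, both chains of collagen IX. Col9a3 rose from 1.40 ± 0.062 to 2.09 ± 0.066 (SD, n = 3 each), a difference of 0.69 with a limma adjusted p of 0.26. Col9a2 rose from 0.44 ± 0.54 to 1.23 ± 0.27, a difference of 0.78 with a limma adjusted p of 0.54, and lost its call without LSC GFP+ replicate 1 or 2, without LSC GFP- replicate 2 or 3 and in the test of the methods. Without LSC GFP- replicate 3 its difference was 0.50. Col9a1, the third chain, stood at -2.17 ± 1.16 against -0.97 ± 0.72 and did not pass, but 1 gene of the list was lower with the block and without LSC GFP+ replicate 1 or 3 or LSC GFP- replicate 1 or 2. Col2a1, the defining collagen of cartilage, was well above background on 1 of 6 arrays, and Matn1, Matn3, Col11a1 and Lect1 on 0. With the replicate block 4 of the 6 passed.

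Of 25 genes of Schwann cells and neural crest, the tissues of Sox10, 16 passed the filter, with a median of -0.32, and 1 was higher and 4 were lower. Egr2, a zinc finger factor of myelination and an early growth response gene, rose from 2.30 ± 0.33 to 3.31 ± 0.19, a difference of 1.0 (limma adjusted p = 0.21). Pmp22, a myelin and junction protein, fell by 1.71 from 0.67 ± 0.61 to -1.04 ± 0.21 (limma adjusted p = 0.13). L1cam, an adhesion molecule of axons, fell by 0.99 (limma adjusted p = 0.32), and Ednrb, the endothelin receptor of neural crest cells, fell by 1.40 (limma adjusted p = 0.47), a call lost without LSC GFP- replicate 1, without LSC GFP+ replicate 2 and in the test of the methods. Ret, a receptor of enteric neural crest, was not well above background on any LSC GFP+ array and was at least 2.0-fold lower there (limma adjusted p = 0.35). The call of Ret was lost in the test of the methods, and its measured difference of -1.44 was -0.93 without LSC GFP+ replicate 3 and -0.44 with normexp, which is smaller than this bound. With normexp Ednrb differed by -0.67. Without LSC GFP- replicate 2, 7 genes of this list were lower in place of 4, in the test of the methods and with the filter on all 6 arrays 2 were, and without LSC GFP- replicate 1 a count of 2 were higher.

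The genes that define these cells were mostly dim and varied by array. Foxd3, Cdh19 and Pmp2 were well above background on 0 of 6 arrays, and S100b on 1 LSC GFP+ and 2 LSC GFP- arrays. Fabp7, a fatty acid binding protein of glia, stood at -3.10, -5.06 and -2.79 in LSC GFP+ cells and 0.22, -4.19 and -1.20 in LSC GFP- cells. Replicate 2 was the lowest of its population in both, as for Sox10, while the list, by its summed level, was lowest there in LSC GFP- cells only. Its summed linear level, in units of the 75th percentile, was 28.8, 51.2 and 33.8 on the LSC GFP+ arrays and 46.0, 27.4 and 32.4 on the LSC GFP- arrays, each in the order of the replicate numbers. It was thus highest on LSC GFP+ replicate 2, where Sox10 was lowest. Mbp, a myelin protein and the brightest gene of the list, was highest on that array, at 4.63. Mbp is part of the sum, and the peak of the sum there rests largely on this gene. The sum without Mbp was not computed. On the log2 scale the summed level had r = -0.12 with Sox10 over the 6 arrays, which share their scaling. The same r was 0.75 with the endothelial list described below, 0.72 with smooth muscle, 0.71 with stromal and 0.34 with neuronal genes. With the remaining lists it lay between -0.45 (basal) and 0.70 (other Sox genes). The part of nerve cells or of other cell types in the Sox10 values was not tested.

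Of 14 neuronal genes, 13 passed the filter, and limma called 0 at the unadjusted threshold of 0.05, also 0 in the test of the methods, with a median of -0.95. Without LSC GFP- replicate 2 the count was 6, and with the replicate block 9 of 13 were lower. The brightest, Snap25 and Elavl4, had differences of -0.015 and -0.10, while Tubb3, a neuronal tubulin, stood at 3.01, 0.0019 and 2.09 in LSC GFP+ cells and 4.78, 1.05 and 3.18 in LSC GFP- cells, lowest in replicate 2 of each. The summed level of the list ranged from 258 to 342 in LSC GFP+ cells and from 257 to 410 in LSC GFP- cells. Snap25 and Elavl4, at mean levels of 7.42 and 6.71, made up most of it, so it says little about the other genes. Their probes have 28 and 30 different triplets. Of the 13 genes, 1 had the higher mean in LSC GFP+ cells. Only 10 of the 13 were well above background on all 6 arrays. The others passed the filter through LSC GFP- cells alone, where they were higher, so the median and the counts by direction depend in part on the filter.

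**Figure D4:**
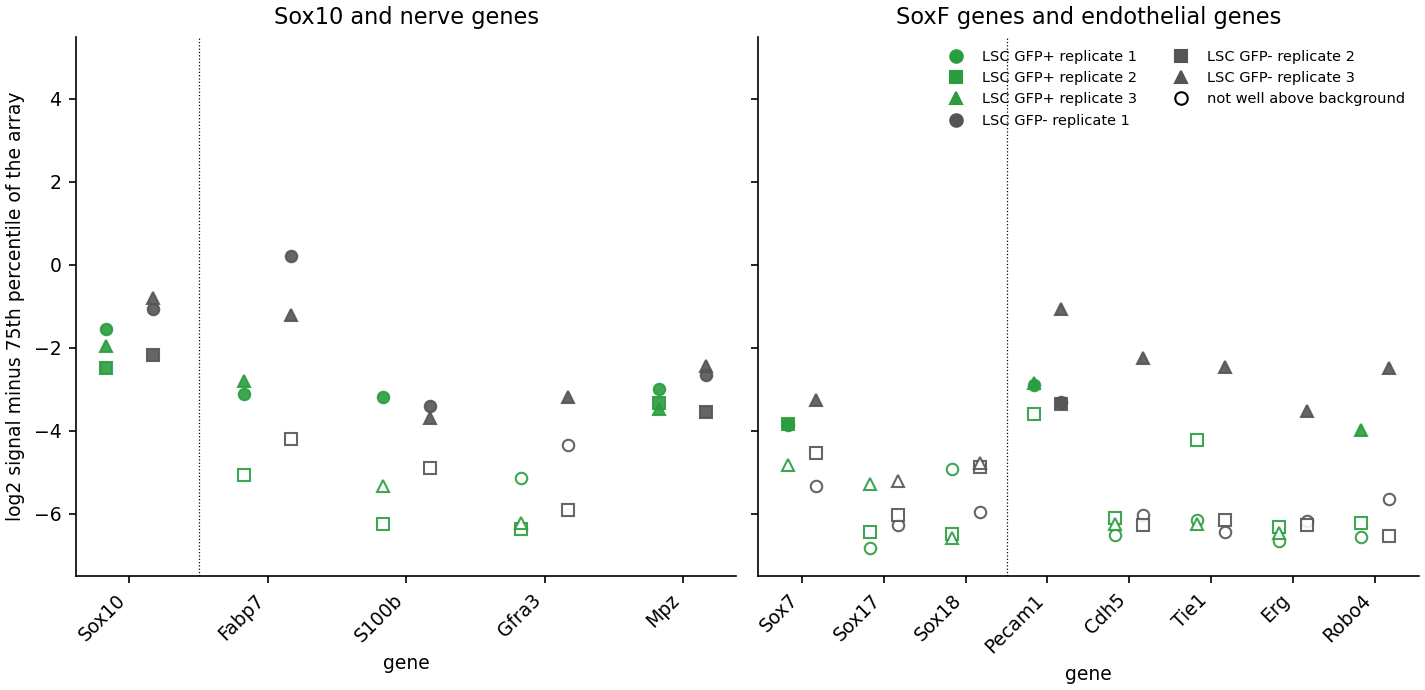
Log2 signal minus the 75th percentile of the array (vertical axis) on 6 arrays for Sox10 beside nerve genes (left) and for Sox7, Sox17 and Sox18 beside endothelial genes (right), with open symbols where the probe was not well above background. Fabp7, like Sox10, is lowest in replicate 2 of each population. The summed level of the whole Schwann and neural crest list (not plotted) is highest, at 51.2, on LSC GFP+ replicate 2, largely through Mbp. Cdh5, Tie1 and Erg are well above background on LSC GFP- replicate 3 alone, and Robo4 also on LSC GFP+ replicate 3.

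Of 16 endothelial genes, the cells of group F, 10 passed the filter, with a median of -0.22, and 1 was lower. Vwf, a clotting protein of endothelium, fell by 0.82 from -2.37 ± 0.18 to -3.19 ± 0.29 (limma adjusted p = 0.30), or by 0.38 with normexp. Cdh5, Tie1 and Erg, which define the cell type, were well above background on LSC GFP- replicate 3 alone, at -2.24, -2.47 and -3.52. Sox7 was highest on that array. Not every gene of the list shared this. Robo4 was also well above background on LSC GFP+ replicate 3, at -3.97, and Flt1 was lowest on LSC GFP- replicate 3, at -4.47. The brightest genes, Kdr, Egfl7 and Plvap, differed by 0.021, -0.38 and 0.0030, with overlap. The summed level ranged from 7.53 to 8.51 in LSC GFP+ cells and from 7.91 to 10.1 in LSC GFP- cells. Kdr, at a mean level of 2.51, made up most of it, so it says little about the other genes. The gate removes cells with CD31, whose gene Pecam1 was at -1.07 on LSC GFP- replicate 3 and between -3.61 and -2.86 on the 5 others. With the replicate block 2 genes of the list passed, 1 of them, Flt1, higher, by 0.84. Without LSC GFP- replicate 1 the lower genes numbered 3. The part of endothelial cells in the Sox7 values was not tested.

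The labelled cell type was checked with basal genes, of which 12 of 13 were well above background on all 6 arrays and Dsg3 on none. All 12 had the higher mean in LSC GFP+ cells, and 6 rose, with a median of 0.45. The largest differences were those of Krt17 (1.40), Krt14 (1.18), Col17a1 (1.09) and Lamb3 (0.88), keratins and adhesion proteins of the basal layer, with limma adjusted p values of 0.10, 0.14, 0.18 and 0.19. Krt14 and Krt5 were named by the study on these samples, so their direction is no independent evidence. Krt5 and Krt15 lost their calls without LSC GFP- replicate 1 or 2 or LSC GFP+ replicate 2 or 3. The summed basal level ranged from 273 to 312 in LSC GFP+ cells and from 211 to 235 in LSC GFP- cells, without overlap, as for Sox2 and Sox6. Its part in their differences was not tested.

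Genes that mark other cell types were described in the same way. Of 12 luminal genes 3 rose and 3 fell, with a median of -0.23, and with the array median in place of the 75th percentile 3 rose and 0 fell. Hoxb13, a homeobox factor of prostate epithelium, rose by 0.80 (limma adjusted p = 0.33). Foxa1, a pioneer factor of the same epithelium, rose by 0.58 (limma adjusted p = 0.48), a call lost without LSC GFP- replicate 1 or 2 or LSC GFP+ replicate 2. Cldn3, a tight junction protein, fell by 0.76 (limma adjusted p = 0.52). Cldn3, Tmprss2 and Prom1 lost their calls with median scaling and without LSC GFP+ replicate 1 or 2 or LSC GFP- replicate 3.

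Of 11 tested stromal genes 6 fell and 2 rose, with a median of -1.19. Some of those that fell, Pdgfra among them, passed the filter through LSC GFP- cells alone, where they were higher. With the filter on all 6 arrays 4 fell, so the count and the median depend in part on the filter. Pdgfra, Col1a1 and Col1a2 differed by -2.36, -2.18 and -2.15 and Dcn by 1.19, with limma adjusted p values of 0.30, 0.11, 0.14 and 0.20. Pdgfra was not well above background on LSC GFP+ replicate 2, lost its call in the test of the methods and differed by -1.23 with normexp. Of 7 tested smooth muscle genes 6 fell, with a median of -1.68, led by Acta2 (-2.13), Myh11 (-2.01), Actg2 (-1.78) and Des (-1.68, or -1.0 with normexp), with limma adjusted p values of 0.14, 0.15, 0.13 and 0.15. The summed smooth muscle level was 7.04 to 10.6 in LSC GFP+ cells and 20.04 to 38.5 in LSC GFP- cells, and the stromal one 32.3 to 38.4 and 33.4 to 75.3. Of 8 tested immune genes 0 passed in limma or the test of the methods and 1 with the replicate block, or without LSC GFP- replicate 1 or LSC GFP+ replicate 3, with a median of -0.040 and summed levels of 243 to 319 and 263 to 302. The brightest of these, Itgam, Csf1r and Cd52, differed by -0.027, 0.067 and -1.14. Itgam, at a mean level of 7.96, made up most of the summed immune level. Its probe has 24 different triplets, against a median of 36 over all probes, and what it reads was not tested. Ptprc, the gene of CD45, had a mean level of -1.45, and Lyz2 and Laptm5 were not well above background on any array. The part of stromal and muscle cells in the Sox differences was not tested.

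For each of the 8 members above background, the 3 genes whose log2 values ran most like its brightest probe over the 6 arrays were taken from 23782 genes above background on all arrays. With 6 points that share their arrays and scaling, such likeness is a description. Sox6 was most like Evx1 (r = 0.993), Nhsl1 (r = 0.990) and Myb (r = 0.986), and 99 genes had r over 0.95 with it. Sox2 was most like Sema3d (r = 0.994) and Ccar1 (r = 0.986), with a probe without a gene name between them. Sox9 was most like Mlh3 (r = 0.999), Rflnb (r = 0.996) and Elf1 (r = 0.996).

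Sox10 was most like Pabpc1l (r = 0.991), Msrb3 (r = 0.986) and Fscn1 (r = 0.982), and only 12 genes had r over 0.95 with it. Sox4 was most like Mark3 (r = 0.999), Naa50 (r = 0.989) and Ifnlr1 (r = 0.987), and Sox11 like Tanc1 (r = 0.993) and Fam78a (r = 0.989), beside a noncoding probe. Sox21 was most like Gm5106 (r = 0.994), followed by a pair of noncoding probes, and the 3 nearest of the Sox5 repeat probe had no gene symbol. None of the named genes was among the 3 of more than 1 member.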

How the data were processed

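RNA of 3 LSC GFP+ and 3 LSC GFP- samples was amplified, labeled with Cy3 and hybridized to 6 arrays with 1 colour, all on the same slide and scanned together, so slide and scan could not be compared. The deposited intensity values are the processed signals of Feature Extraction, version 11.0.1.1 per the file headers and 10.7.3.1 in the submitters' processing notes, with background and a spatial trend removed and no normalization between arrays. The deposited table of the series holds the same signals rounded, within 0.496%. Between 36651 and 42123 probes were well above background per array, 123 to 154 outlier spots per array were left out, and saturated spots were absent.

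The log2 signals minus the 75th percentile of each array were compared in Python 3.11.15 and by limma 3.58.1 (lmFit, eBayes, R 4.3.3, two-sided tests) with Benjamini-Hochberg adjustment over all 37005 probes well above background on 3 arrays of 1 population. The SE given for a Sox member is that of the difference of 2 means, and that of Sox13 is from limma. The members and lists were chosen with earlier results of these data known. Named were all members, the other Sox genes, up to 4 called genes and the 3 brightest of a list, and the 3 most alike genes. Sox2ot, Ptprc, Lyz2, Laptm5 and the genes described by array beside Sox10 and Sox7 were chosen after their values were seen. A gene below background in a population was given as a bound. Some genes of the lists are counted but not reported here by name.

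Deviations of samples with the same number in the labels correlated with r of 0.43, 0.28 and 0.67. Those of unlike numbers had r from -0.55 to 0.22, the highest being LSC GFP+ replicate 1 with LSC GFP- replicate 2. The sources do not say that a number marks a shared sort, so pairing by number is an assumption. The values and p values given are those of the fit without pairing, and the fit with the number as a replicate block was an alternative. With 3 against 3 the smallest exact two-sided permutation p is 0.1. The p values set a difference against the spread between these samples, which limma draws toward that of all probes tested. Alternatives were normexp with an offset of 50, quantile normalization, median scaling, the rounded values, 2 other filters, the methods' t-test, the replicate block, the mean over probes and each array left out. The scripts were tested on simulated data.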

Additional observations from a re-analysis of the deposited data

How the results depend on the processing

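The Sox13 call, the only 1 among the other Sox genes, was lost (0 genes) under quantile normalization, median scaling, no filter and the methods' t-test, and the count ranged from 0 to 1 with single arrays left out, while the cause was not tested. The number of probes called rose from 2925 to 5480 with the replicate block, which pairs the samples, and ranged from 2283 to 4061 with single arrays left out. Of the 14 Sox probes, 10 to 12 had the higher mean in LSC GFP+ cells under normexp, the other scalings, the rounded values and with single arrays left out, against 11, and averaged over probes 6 of 8 genes did, as at the brightest probe. Under these, only the 2 dim Sox5 probes changed sign, from -0.36 to 0.27 on the dimmest. Genes called over the lists numbered 28 to 43 with arrays left out, against 36, and 53 with the replicate block. The median of all probes moved by less than 0.1 under each scaling. The number of arrays and the dim signals of Sox7 and Sox17 limit what could be measured.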
